A study of Mus musculus with 12 samples.

Results

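Ciita, the co-activator that switches on the major histocompatibility complex (MHC) class II genes, its DNA-binding partner Rfx5 and 8 genes of the class II pathway are described here across mouse peritoneal macrophages that had or had not been given antibody-coated platelets. The 10 genes are Ciita, Rfx5, H2-Aa, H2-Ab1, H2-Eb1, Cd74, H2-DMa, H2-DMb1, H2-DMb2 and H2-Oa. They were looked up by symbol and make up 10 of the 34948 rows of the count table that carry a symbol. All 10 passed the filter on low counts, among 16546 genes tested. The set was chosen on values of these same libraries, since Ciita was known to be lower with coated platelets in each genotype. The comparison of R300 with blank macrophages is therefore described without p-values for these genes, and tests are given for the differences between genotypes, which did not enter the choice.

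The study asks how IRE1α, the endoplasmic reticulum stress sensor encoded by Ern1, bears on the uptake of platelets by macrophages in immune thrombocytopenia. Poly(A) RNA of 4 groups was sequenced, with 3 libraries per group and 12 in all, which the design names as biological replicates. All cells were peritoneal macrophages of male mice aged 8 weeks, taken 3 days after 3% Brewer thioglycolate was injected into the peritoneum, an irritant that draws in monocytes. The KO R300 group came from Mac-Ern1KO mice and the WT R300 group from Ern1fl/fl mice, which carry the floxed alleles without a named deletion, and both had spent 2 h with platelets opsonised by R300, which binds CD42 on the platelet surface. The KO blank and WT blank groups came from the same genotypes with the treatment given as Con. Whether platelets or the same time in culture were given to blank cells is not stated in the labels, so antibody, platelets and time cannot be told apart. They also do not name the Cre driver or say how many mice gave each library.

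MHC class II molecules are pairs of an alpha and a beta chain that show peptides from ingested material to CD4+ T cells. CIITA does not bind DNA itself: it is recruited to a complex of RFX (RFX5, RFXAP and RFXANK), NF-Y and CREB factors on the paired X and Y boxes of class II promoters, and its amount usually sets how strongly those genes are transcribed. In macrophages Ciita is induced by interferon gamma through IRF1 among other factors. Ciita has several alternative promoters, used by dendritic cells, by B cells and after interferon gamma, and the counts sum over all of them.

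The X and Y boxes that the CIITA complex uses can be read in the promoters of the class II genes described below. Windows of 250 bases before to 50 bases after the annotated start were taken from RefSeq (GRCm38.p6), which held 7 of the 10 genes: Rfx5, H2-Aa, H2-Eb1, H2-DMa with 2 windows, H2-DMb1, H2-DMb2 and H2-Oa. The search was for GNAAC, the core of the X box, followed after 24 to 32 bases by ATTGG, the core of the Y box, on both strands. This spaced pair was in 505 of 32851 windows (1.54%), whereas ATTGG alone was in 37.4%. It was in 4 of the 7 genes, H2-Aa, H2-Eb1, H2-DMb1 and H2-Oa, and also in H2-Ob and H2-Eb2, the class II genes outside the set of 10. The stretches are shown to let the shared letters be compared between genes that are abundant here and genes that are scarce. Each runs 5′ to 3′ on the strand of its gene, from 12 bases before the X core to the end of the Y core, with both cores in capitals.
H2-Aa, chr17:34287867-34287916, minus strand: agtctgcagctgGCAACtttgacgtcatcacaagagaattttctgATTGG
H2-Eb1, chr17:34305764-34305812, plus strand: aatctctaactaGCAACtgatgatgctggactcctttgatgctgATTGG
H2-Oa, chr17:34092291-34092340, plus strand: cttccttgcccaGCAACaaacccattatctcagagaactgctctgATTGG
H2-Ob, chr17:34238806-34238852, plus strand: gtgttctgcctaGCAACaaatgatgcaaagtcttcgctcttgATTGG
H2-Eb2, chr17:34325531-34325579, plus strand: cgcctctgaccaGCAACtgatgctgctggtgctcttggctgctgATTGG
All 5 printed stretches read GCAAC at the X core. The X core began 81 bases before the start of H2-Aa, 91 before H2-Eb1, 76 before H2-Oa, 87 before H2-Ob and 132 before H2-Eb2, with 25 to 28 bases between the cores. In H2-DMb1 the pair also stood 28 bases apart. The matching 50 bases of its paralog H2-DMb2 were identical at 45 positions (90%) but held no GNAAC at 24 to 32 bases before the ATTGG. No match was found in the windows of Rfx5 or H2-DMa, which says only that these letters are not in those windows.

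The libraries call for some caution before the values. Total counts ran from 21765586 in WT blank 1 to 44273655 in KO blank 2, and levels below are normalised CPM, the counts of a gene scaled to a common library size. Although the mice are labelled male, 8 libraries held Xist, the non-coding RNA by which XX cells shut down an X chromosome, and 1 library of each group held almost none (KO R300 3, WT R300 2, KO blank 3 and WT blank 3, each under 1 CPM). KO R300 1 and 2, and WT R300 1 and 3, were nearly alike, with a median chi-square per gene of 1.65 and 1.45 against 7.89 to 14.0 for the other pairs within a group. For the R300 groups n = 3 therefore counts libraries, and p-values measure the spread between them, which may be technical. The targeted gene, Ern1, was no lower in KO than in WT. It was at 235, 225 and 174 CPM in KO R300 and at 204, 138 and 205 CPM in WT R300. In blank cells it was at 150, 155 and 116 CPM in KO and at 113, 117 and 94.1 CPM in WT. Gene-level counts do not reveal whether floxed exons are missing, so directions below are those of the libraries labelled KO and WT. Macrophage markers were present: none of 8 defining markers (among them Adgre1, Csf1r, Cd68 and Lyz2) was at 0 in any group.

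Ciita stood lower in every R300 library than in every blank library. In KO cells it was at 14.7, 15.5 and 18.7 CPM in R300 libraries 1 to 3, against 42.9, 35.2 and 40.4 CPM in blank libraries 1 to 3. In WT cells it was at 15.4, 20.6 and 14.9 CPM in R300, against 45.8, 46.2 and 27.8 CPM in blank. The gap between the states was wide in KO and narrower in WT, where the libraries without Xist came closest, the highest of R300 (20.6 CPM) and the lowest of blank (27.8 CPM). The R300 level was 0.413 of the blank level in KO (log2 -1.28, SE 0.20) and 0.425 in WT (log2 -1.24, SE 0.20). Between the libraries without Xist alone, 1 per group, it was 0.462 of blank in KO and 0.740 in WT. Ordered by group mean, Ciita was at 16.3 ± 2.09 CPM in KO R300, 17.0 ± 3.15 CPM in WT R300, 39.5 ± 3.93 CPM in KO blank and 39.9 ± 10.5 CPM in WT blank (SD, n = 3 each). The neighbours within a state differed by less than their SD, and the only step beyond it lay between R300 and blank.

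Of the 10 genes, Ciita alone was called lower with R300 (adjusted p under 0.05, edgeR quasi-likelihood test across all genes) in KO and likewise in WT. The same test called 0.834% of all genes in KO (0.139% lower) and 0.623% in WT (0.0725% lower). Because Ciita entered the set for this difference, nothing is read from its call. The call did not hold when some single libraries were left out. In KO it was lost without KO R300 1, KO R300 2 or KO blank 1 (log2 -1.21, -1.26 and -1.21), and in WT without WT R300 1, WT R300 3, WT blank 1 or WT blank 2 (log2 -1.17, -1.15, -1.14 and -1.12). In those fits the calls among all genes fell too, from 138 to between 45 and 59 in KO, and from 103 to between 32 and 45 in WT. The Ciita call was also lost in both genotypes when 1 library of each near-alike pair was used (log2 -1.24 in KO and -1.15 in WT).

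Rfx5 encodes the subunit of RFX that contacts the X box. It was lower with R300 too, at a smaller size. It was at 6.00, 5.60 and 7.92 CPM in KO R300, against 10.1, 11.9 and 9.53 CPM in KO blank, and at 6.07, 9.66 and 7.66 CPM in WT R300, against 11.9, 13.3 and 12.7 CPM in WT blank. The groups did not overlap in either genotype. R300 was at 0.619 of blank in KO (log2 -0.69, SE 0.19) and at 0.616 in WT (log2 -0.70, SE 0.19), which edgeR did not call and DESeq2 did in both. Between the libraries without Xist, R300 was at 0.831 of blank in KO and 0.759 in WT. Ciita and Rfx5 were the 2 of 10 genes that were lower with R300 with no overlap between libraries, in KO and again in WT. Over all genes this was so for 5.68% in KO and 6.09% in WT. Ciita entered the set for this difference, so its place in the count is not a result beside those shares. Of the exonic bases of Rfx5 26.8% overlap B230398E01Rik on the opposite strand, and the library kit does not mark strand, so reads within that overlap cannot be assigned to either gene.

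**Figure D1:**
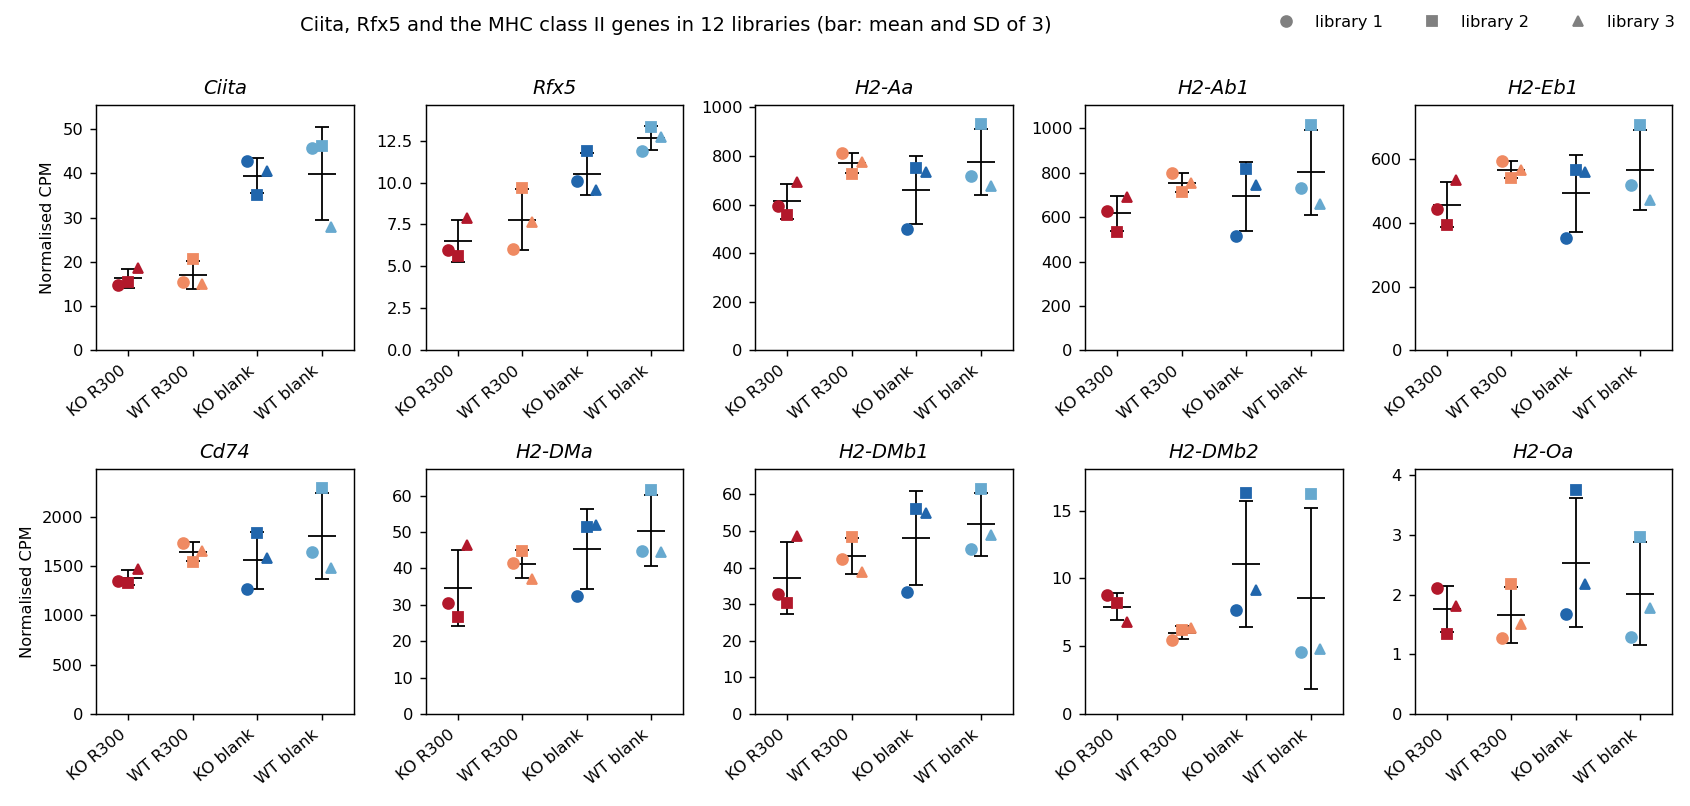
Normalised CPM (y axis, linear from 0) of the 10 genes in each of 12 libraries, by group on the x axis; marker shapes give the library number, bars the mean and SD of 3 libraries. Ciita lies between 14.7 and 20.6 CPM in R300 libraries and between 27.8 and 46.2 CPM in blank libraries, while the class II genes overlap between R300 and blank.

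The antigen-presenting chains were close to their blank level. H2-Aa and H2-Ab1 encode the alpha and beta chains of I-A, H2-Eb1 the beta chain of I-E, and Cd74 the invariant chain that fills the groove until peptide is loaded. H2-Aa was at 593, 556 and 695 CPM in KO R300, against 500, 750 and 735 CPM in KO blank. It was at 812, 728 and 774 CPM in WT R300, against 717, 931 and 678 CPM in WT blank. R300 and blank libraries overlapped in both genotypes, and the widest spread was among blank libraries, where KO blank 1 was lowest and WT blank 2 highest of all 12. The R300 level was 0.929 of blank in KO (log2 -0.11, SE 0.17) and 0.995 in WT (log2 -0.01, SE 0.17), both smaller than their SE.

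The other abundant class II messages were close to H2-Aa in this. R300 over blank was 0.891 in KO and 0.942 in WT for H2-Ab1, 0.925 and 1.00 for H2-Eb1, and 0.886 and 0.910 for Cd74 (SE 0.18 to 0.20 on the log2 scale). Without WT blank 2, the library richest in these messages, the WT log2 values were all positive, at 0.15 for H2-Aa, 0.12 for H2-Ab1, 0.20 for H2-Eb1 and 0.07 for Cd74.

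Peptide loading genes had somewhat lower R300 values than the chains, without a gap between groups. H2-DMa and H2-DMb1 encode the chains of H2-M, which exchanges the invariant chain fragment for peptide. H2-DMa was at 30.4, 26.8 and 46.4 CPM in KO R300, against 32.5, 51.4 and 52.1 CPM in KO blank, and at 41.5, 44.8 and 37.1 CPM in WT R300, against 44.8, 61.7 and 44.6 CPM in WT blank. R300 was at 0.762 of blank in KO (log2 -0.39, SE 0.23) and 0.817 in WT (log2 -0.29, SE 0.23), and at 0.775 and 0.833 for H2-DMb1. Between the libraries without Xist H2-DMa was at 0.892 of blank in KO and 1.00 in WT. Of its exonic bases 10.4% overlap Brd2 on the opposite strand.

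H2-DMb2, a second gene for the beta chain of H2-M, and H2-Oa, the alpha chain of H2-O, an inhibitor of H2-M found mainly in B cells, were scarce and varied most. H2-DMb2 was at 8.76, 8.22 and 6.80 CPM in KO R300, against 7.68, 16.3 and 9.12 CPM in KO blank. It was at 5.45, 6.23 and 6.36 CPM in WT R300, against 4.54, 16.2 and 4.82 CPM in WT blank. Blank library 2 of each genotype stood far above the others. R300 over blank was 0.717 in KO (log2 -0.48, SE 0.45) and 0.701 in WT (log2 -0.51, SE 0.45). Without KO blank 2 the KO value was -0.08 log2, and without WT blank 2 the WT value was 0.36 log2. H2-Oa was between 1.27 and 3.74 CPM in all libraries, with R300 over blank of 0.691 in KO and 0.813 in WT. H2-DMb1 and H2-DMb2 share 369 stretches of 50 bases (22.7% of those of H2-DMb1 and 21.2% of those of H2-DMb2), so the division of reads between them is uncertain, and 22.8% of the exonic bases of H2-Oa overlap BC051537 on the opposite strand.

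**Figure D2:**
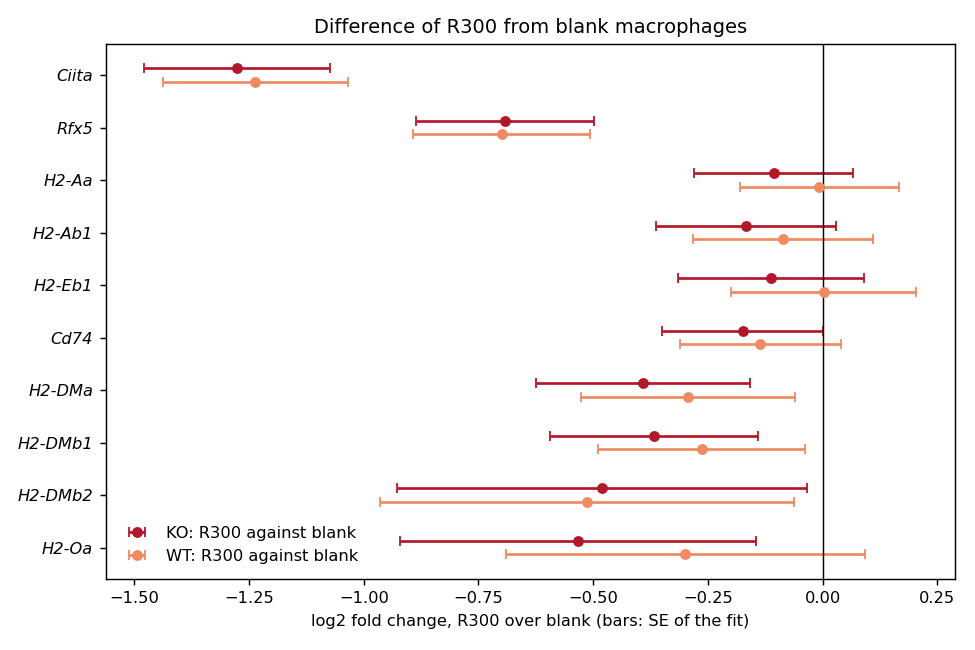
Log2 fold change of R300 over blank (x axis) for the 10 genes, KO in dark red above WT in orange, with bars for the SE of the fit. Ciita is at -1.28 in KO and -1.24 in WT and Rfx5 at -0.69 and -0.70, whereas H2-Aa, H2-Ab1, H2-Eb1 and Cd74 lie between -0.17 and 0.00.

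Counted over the 10 genes, R300 over blank was negative for 10 in KO (median log2 -0.38) and for 9 in WT (median log2 -0.28). Ciita, chosen for this difference, is among those counted, so the counts are a description. Over all genes tested the median was 0.00 in each genotype, and 50.7% were negative in KO and 50.9% in WT. Without WT blank 2, the WT values of H2-Aa, H2-Ab1, Cd74, H2-DMb2 and H2-Oa were positive.

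The proportion of Ciita to the genes it is known to drive was lower with R300. The summed level of H2-Aa, H2-Ab1, H2-Eb1 and Cd74 was 2810 to 3387 CPM in KO R300, against 2633 to 3965 CPM in KO blank, and 3522 to 3937 CPM in WT R300, against 3285 to 4947 CPM in WT blank. For every 1000 counts of these 4 genes there were 4.88 to 5.53 counts of Ciita in KO R300, against 8.87 to 16.3 in KO blank. In WT there were 3.91 to 5.85 in R300, against 8.48 to 12.7 in blank. The R300 and blank ranges did not overlap, in KO, in WT, or with the genotypes put together. These ratios reuse the Ciita counts that chose the set and are a description.

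**Figure D3:**
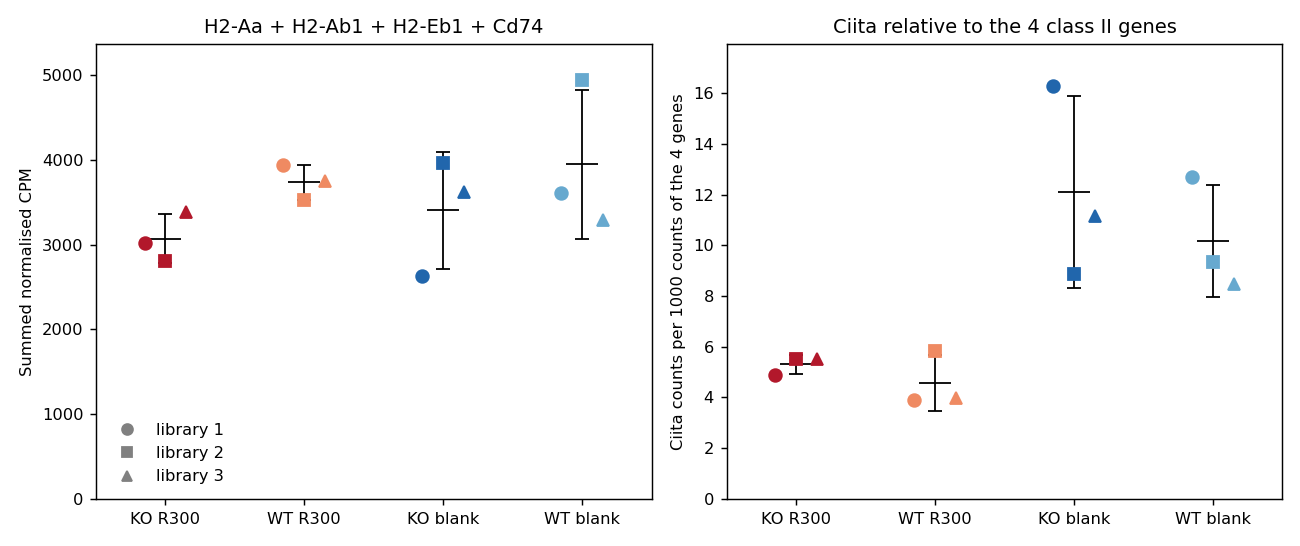
Left, summed normalised CPM of H2-Aa, H2-Ab1, H2-Eb1 and Cd74; right, Ciita counts per 1000 counts of those 4 genes, by group with marker shapes for the library and bars for mean and SD of 3. The sums overlap between groups, and the ratio is at most 5.85 in R300 libraries and at least 8.48 in blank libraries.

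Among themselves the class II genes kept nearly fixed proportions in all 12 libraries. For each count of H2-Aa there were 0.961 to 1.09 counts of H2-Ab1, 0.698 to 0.766 of H2-Eb1 and 2.11 to 2.53 of Cd74. H2-DMa and H2-DMb1, whose products pair, were at a ratio of 0.881 to 1.00. The ratio of H2-DMb2 to H2-DMb1 was loose, from 0.0986 to 0.292. Per kilobase of exon and averaged over the 12 libraries, Cd74 was the most abundant at 951 CPM per kb, then H2-Ab1 at 279, H2-Eb1 at 268 and H2-Aa at 186. H2-DMb1 was at 26.8, H2-DMa at 12.4 and H2-DMb2 at 4.80. Ciita itself was at 2.96, Rfx5 at 1.70 and H2-Oa at 1.41 CPM per kb. The length is the union of annotated exons, 3798 bases for H2-Aa, 2568 for H2-Ab1 and 1944 for H2-Eb1. Counts of H2-Aa and H2-Ab1 were close, so the order of these chains per kb depends on the annotated length. The promoters of H2-Aa and H2-Oa printed above thus carry the same spaced cores at levels per kb of 186 and 1.41 CPM.

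Class II genes outside the set were scarce. H2-Ob, the beta chain of H2-O, was at 10.4, 10.5 and 9.22 CPM in KO R300, against 11.8, 18.3 and 10.3 CPM in KO blank, and at 7.95, 9.42 and 7.54 CPM in WT R300, against 6.58, 23.6 and 7.86 CPM in WT blank. As for H2-DMb2, blank library 2 was highest in each genotype. H2-Eb2, a second beta chain gene, was at 3.93 to 11.7 CPM in all libraries, and R300 over blank was 1.00 in KO and 1.01 in WT. H2-Ea, the alpha chain of I-E, held at most 0.151 CPM in any library and was not tested. Of 4 genes in this list 3 were in the table and 2 were tested, and 0 were called in any comparison.

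B cells also express class II genes, and their markers moved with some of these values. The summed level of 14 B cell markers, among them Cd79a, Ms4a1 and Ighm, was 152, 151 and 90.2 CPM in KO R300, against 161, 313 and 134 CPM in KO blank. It was 87.7, 76.8 and 104 CPM in WT R300, against 82.4, 343 and 88.9 CPM in WT blank. The libraries with the highest sums, KO blank 2 and WT blank 2, were also the highest for H2-DMb2, H2-Oa and H2-Ob. The same libraries were the highest for H2-DMb1, H2-Eb2, H2-Ab1 and Cd74. For H2-Aa, H2-Eb1 and H2-DMa, WT blank 2 was the highest, but KO blank 2 was not the next. These libraries also had the highest summed markers of neutrophils (74.4 and 67.1 CPM) and of T and NK cells (9.27 and 10.4 CPM). All 14 B cell markers had negative R300 over blank values in each genotype (median log2 -0.77 in KO and -1.07 in WT), with 0 called and none at 0 in a whole group. In WT the blank sums of 82.4 and 88.9 CPM lay within the R300 range, and only WT blank 2 lay above it. The part of B cells in the class II values was not tested. In bulk RNA, fewer cells of a type and less RNA per cell cannot be told apart.

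**Figure D4:**
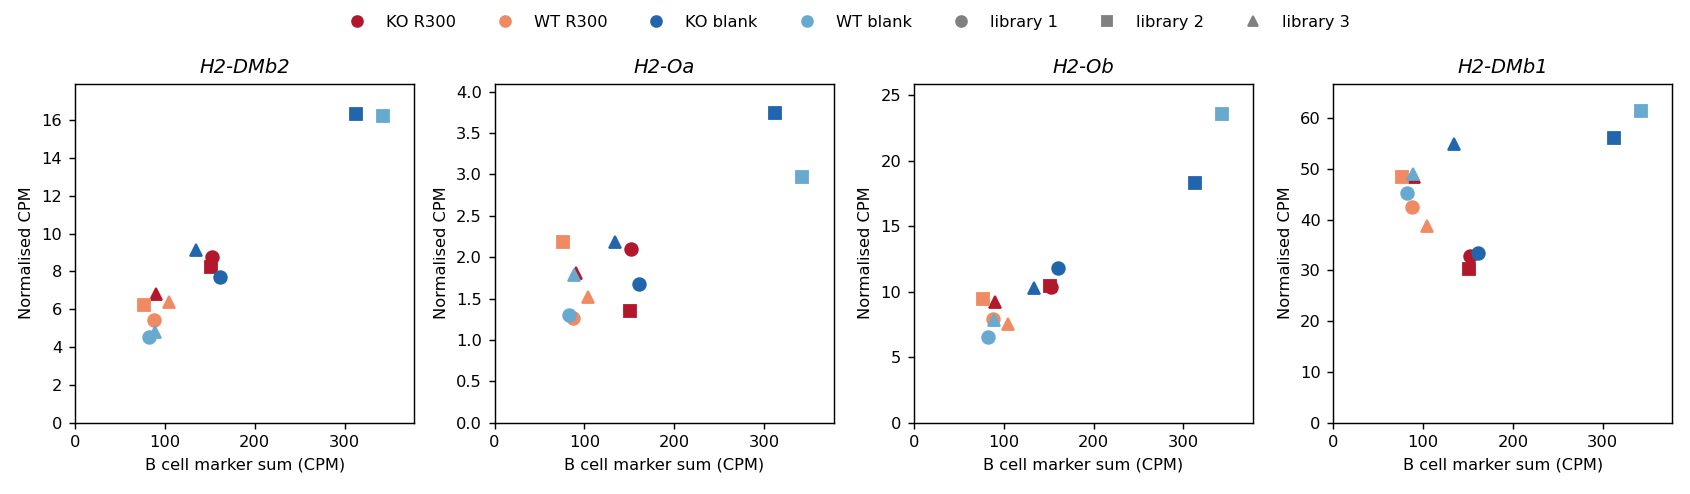
Normalised CPM of H2-DMb2, H2-Oa, H2-Ob and H2-DMb1 (y axes) against the summed CPM of 14 B cell markers (x axis) in 12 libraries, colour for group and shape for library number. KO blank 2 and WT blank 2, at 313 and 343 CPM of B cell markers, are the highest libraries for H2-DMb2, H2-Oa, H2-Ob and H2-DMb1.

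Markers of other antigen-presenting cells were mixed. The 12 dendritic cell markers summed to 83.4 to 103 CPM in KO R300, against 61.2 to 93.0 CPM in KO blank, and to 81.7 to 118 CPM in WT R300, against 49.2 to 74.3 CPM in WT blank. Of these 12, 6 were higher and 6 lower in KO (median log2 -0.05), and 8 were higher and 4 lower in WT (median log2 0.32). In each genotype 1 was called, beside 0.834% of all genes in KO and 0.623% in WT: it was Ccr7, the chemokine receptor of migrating dendritic cells, at 2.83-fold of blank in KO (log2 1.50, SE 0.30) and 3.26-fold in WT (log2 1.71, SE 0.30). Batf3, a transcription factor of cross-presenting dendritic cells, was at 0.517 of blank in KO and was not called. Its libraries did not overlap, and 5.68% of all genes in KO were likewise lower with no overlap. Of 11 markers of recruited monocytes and their progeny, 9 were negative in KO (median log2 -0.53) and 11 in WT (median log2 -0.37), with 0 called. Cx3cr1, the fractalkine receptor, was at 0.388 of blank in KO and 0.324 in WT, and Ccr2, the receptor for CCL2 on inflammatory monocytes, at 0.503 and 0.408. The summed level of those 11 was 10840 to 28940 CPM in KO R300, against 11000 to 28250 CPM in KO blank, and 8094 to 14820 CPM in WT R300, against 8182 to 15520 CPM in WT blank. Nearly all of that sum was 1 gene of the list, Fn1. It was at 10580 to 28640 CPM in KO R300 and 10710 to 27820 CPM in KO blank. In WT it was at 7852 to 14580 CPM in R300 and 7942 to 14980 CPM in blank. The sum therefore says little of the other markers. No marker of either list was at 0 in a whole group, and the part of these cells in the Ciita difference was not tested.

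The partners of Ciita on DNA gave no call. Of the 12 partners of the class II enhanceosome, among them Rfxap, Rfxank, the 3 NF-Y subunits, Creb1 and Crebbp, 0 were called in any comparison, and the median R300 over blank was -0.07 log2 in KO and -0.10 in WT. Rfxap, another RFX subunit, was at 1.16 of blank in KO, and Nfyc, the gamma subunit of NF-Y, at 0.905 in WT. Whether Rfx5 differs from these partners was not tested.

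Upstream of Ciita, 9 of 10 genes of the interferon gamma pathway were tested and 0 were called in any comparison. Ifng itself was too low to be tested. Irf1, the interferon-induced factor that activates the Ciita promoter, was at 29.7, 28.8 and 37.3 CPM in KO R300, against 47.8, 126 and 66.9 CPM in KO blank, and at 41.7, 58.2 and 42.4 CPM in WT R300, against 69.2, 119 and 103 CPM in WT blank. Its groups did not overlap, and 5.68% of all genes in KO and 6.09% in WT were likewise lower with no overlap. R300 was at 0.399 of blank in KO (log2 -1.33, SE 0.32, edgeR adjusted p = 0.114) and 0.488 in WT (log2 -1.04, SE 0.32, edgeR adjusted p = 0.291). Ifngr1, the ligand-binding receptor chain, was at 1.27 of blank in KO and was not called.

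Of 9 described repressors of Ciita, 6 were higher and 3 lower with R300 in KO (median log2 0.17), and 5 were higher and 4 lower in WT (median log2 0.33). In KO 1 was called, beside 0.834% of all genes (0.139% lower), and in WT 0. The called gene was the stress factor Atf3, at 0.452 of blank in KO (log2 -1.15, SE 0.20). In WT it was at 0.566 of blank (log2 -0.82, SE 0.20) and was not called. The difference between the genotypes' responses was -0.32 log2 for Atf3 (SE 0.28, edgeR adjusted p = 1.00). Prdm1, which encodes BLIMP1, a repressor of the Ciita promoters in plasma cells, averaged 87.5 CPM in KO R300, against 65.1 CPM in KO blank, and 103 CPM in WT R300, against 76.8 CPM in WT blank. Tgfb1, a cytokine that lowers Ciita, averaged 720 CPM in KO R300, against 525 CPM in KO blank, and 669 CPM in WT R300, against 534 CPM in WT blank. Neither gene was called in either genotype.

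Downstream, 11 genes of class II antigen processing and turnover were tested, among them the cathepsins Ctss and Ctsl and the thiol reductase Ifi30, and 0 were called in any comparison. Marchf1, the ubiquitin ligase that sends surface class II molecules to lysosomes, was at 36.4, 31.3 and 23.0 CPM in KO R300, against 80.2, 26 and 38.9 CPM in KO blank. It was at 24.1, 24.3 and 24.7 CPM in WT R300, against 59.6, 44.6 and 38.6 CPM in WT blank. R300 was at 0.626 of blank in KO (log2 -0.68, SE 0.34), where the libraries overlapped. It was at 0.513 in WT (log2 -0.96, SE 0.34), where they did not, as for 6.09% of all genes lower in WT. Neither response was called. The difference between these responses was 0.29 log2 (SE 0.48, edgeR adjusted p = 1.00).

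Costimulatory genes had values in both directions that did not pass. Of 6 tested, 0 were called in any comparison. Icosl, the ligand of ICOS on T cells, was at 0.223 of blank in KO (edgeR adjusted p = 0.0713) and 0.220 in WT (edgeR adjusted p = 0.0866). Cd80 and Cd86, both ligands of CD28, were higher with R300 in both genotypes without being called. Cd80 averaged 97.8 CPM in KO R300, against 21.7 CPM in KO blank, and 61.6 CPM in WT R300, against 13.7 CPM in WT blank. Cd86 averaged 162 CPM in KO R300, against 79.6 CPM in KO blank, and 143 CPM in WT R300, against 79.4 CPM in WT blank. For Icosl, Cd80 and Cd86, named for a low p within this list, the R300 and blank libraries of a genotype did not overlap. Over all genes 5.68% in KO and 6.09% in WT were lower with no overlap. The share that was higher with no overlap was not computed.

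The genes whose levels were most like those of Ciita over the 12 libraries were Rassf4, Tbc1d31, Clec4a3, Arrdc2 and Stk38. Ciita was chosen for its R300 difference, so a likeness to it in that respect is a description. Pearson r of log2(CPM + 0.1) was 0.954, 0.953, 0.953, 0.949 and 0.947 for them, among 11493 genes ranked. Rassf4 averaged 220 CPM in KO R300, 236 CPM in WT R300, 509 CPM in KO blank and 506 CPM in WT blank. The mean of H2-Aa, H2-Ab1, H2-Eb1 and Cd74 had as its nearest genes H2-Q10, a class I gene of the same chromosome region, at 0.912, then Selenos at 0.902, Zfp874a at 0.869, the chemokine Ccl5 at 0.859 and mt-Atp8 at 0.850.

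Between genotypes, the class II chains were lower in KO than in WT R300 libraries by a margin that did not pass the test. H2-Aa was at 593, 556 and 695 CPM in KO R300 and at 812, 728 and 774 CPM in WT R300. Cd74 was at 1346, 1326 and 1469 CPM in KO R300 and at 1733, 1542 and 1652 CPM in WT R300. The groups did not overlap for either gene. KO was at 0.797 of WT for H2-Aa (95% interval 0.611 to 1.04), 0.818 for H2-Ab1, 0.805 for H2-Eb1 and 0.841 for Cd74. These 4 were lower in KO with no overlap, as were 3.87% of all genes. They followed each other over the 12 libraries (Pearson r 0.910 to 0.989), so they are not 4 separate observations. Each R300 group also holds a near-alike pair of libraries. H2-DMb2, at 1.32 (95% interval 0.662 to 2.63), was the 1 member higher with no overlap, as were 4.03% of all genes. The lowest p was 0.0858, for H2-Aa, and the adjusted p was 1.00 for all 10 genes (edgeR quasi-likelihood test). Of all genes 0% were called, 324 had an unadjusted p under 0.05, and DESeq2 called 14, none of them a member. Exact permutation of 3 libraries against 3 cannot give a two-sided p under 0.1.

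The libraries without Xist narrowed this margin. There KO over WT in R300 was 0.955 for H2-Aa, 0.969 for H2-Ab1, 0.987 for H2-Eb1 and 0.953 for Cd74, with 1 library on each side. The 8 defining macrophage markers did not lean one way as a list: 4 were higher and 4 lower in KO (median log2 0.04), with 0 called. Their sum was 12500 to 14680 CPM in KO R300, against 18450 to 19140 CPM in WT R300. That gap lay mostly in 1 gene of the list, Lyz2, so the sum says little of the other markers. Lyz2, the lysozyme of macrophages and neutrophils, averaged 7090 CPM in KO R300 and 12530 CPM in WT R300 (ratio 0.566, edgeR adjusted p = 0.307), while Itgam, an integrin chain, was at 1.52-fold of WT (edgeR adjusted p = 1.00). Of 9 tested markers of resident peritoneal macrophages, 8 were higher and 1 lower in KO R300 than in WT R300 (median log2 0.71), with 0 called. In blank cells 8 were higher and 1 lower in KO (median log2 0.76), again with 0 called. The 10 markers of this list summed to 1106, 1152 and 750 CPM in KO R300 libraries 1 to 3, against 896, 742 and 882 CPM in WT R300. These sums overlapped, and the higher KO values were those of the near-alike pair. Alox15, with the lowest p of the list, was at 22.4, 25.0 and 4.42 CPM in KO R300, against 4.68, 6.68 and 5.12 CPM in WT R300. The sums overlapped in blank too (689 to 1285 CPM in KO, 695 to 950 CPM in WT). The defining markers leaned lower in blank KO cells, with 1 higher and 7 lower (median log2 -0.09). Lyz2 was at 0.517 of WT there (edgeR adjusted p = 0.0779) with the groups apart, and the share over all genes was not computed in blank. B cell marker sums were 90.2 to 152 CPM in KO R300 and 76.8 to 104 CPM in WT R300. The part of all these cells in the class II values was not tested.

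In blank cells the genotypes overlapped for all 10 genes. Same-numbered blank libraries deviated together. Within those 3 pairs Rfx5 was lower in KO in 3, and H2-DMb2 and H2-Oa were higher in KO in 3. The other members differed in direction between the pairs. The share of all genes with the same direction in 3 pairs was not computed, so nothing is read from these counts. With the number as a block in the fit 0 of 10 genes were called. KO was at 0.854 of WT for H2-Aa (95% interval 0.655 to 1.11), 0.865 for H2-Ab1, 0.872 for H2-Eb1 and 0.864 for Cd74, and 0 of 10 were called (adjusted p = 1.00 for each, edgeR quasi-likelihood test). Of all genes 0% were called, with 181 at an unadjusted p under 0.05, and DESeq2 called 4, none of them a member. Without WT blank 2 the H2-Aa difference was -0.07 log2 and that of Cd74 was 0.00 log2. Between the blank libraries without Xist KO was at 1.08 of WT for H2-Aa and 1.07 for Cd74. The median of the 10 genes was -0.18 log2 in blank and -0.25 in R300, beside 0.00 and -0.01 over all genes.

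No difference of Ciita between genotypes was detected. KO was at 0.961 of WT in R300 cells (95% interval 0.708 to 1.31) and at 0.989 in blank cells (95% interval 0.731 to 1.34), with adjusted p = 1.00 in each (edgeR quasi-likelihood test). Between the blank libraries without Xist Ciita was at 40.4 CPM in KO and 27.8 CPM in WT. Rfx5 was at 0.836 of WT in R300 and 0.831 in blank, with adjusted p = 1.00 in each.

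No difference between the R300 responses of KO and WT was detected by the interaction test for any of the 10 genes. For Ciita the difference of the responses was -0.04 log2 (SE 0.28), a ratio of 0.972 with a 95% interval of 0.633 to 1.50, and for Rfx5 it was 0.01 log2 (SE 0.27). Adjusted p was 1.00 for all 10 genes (edgeR quasi-likelihood test). Of all genes 0% were called, 95 had an unadjusted p under 0.05, and DESeq2 called 0. The interval is on the R300 over blank ratio of Ciita in KO relative to that in WT. It allows a deeper fall in KO (0.633 times the WT ratio) or a shallower one (1.50 times).

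**Figure D5:**
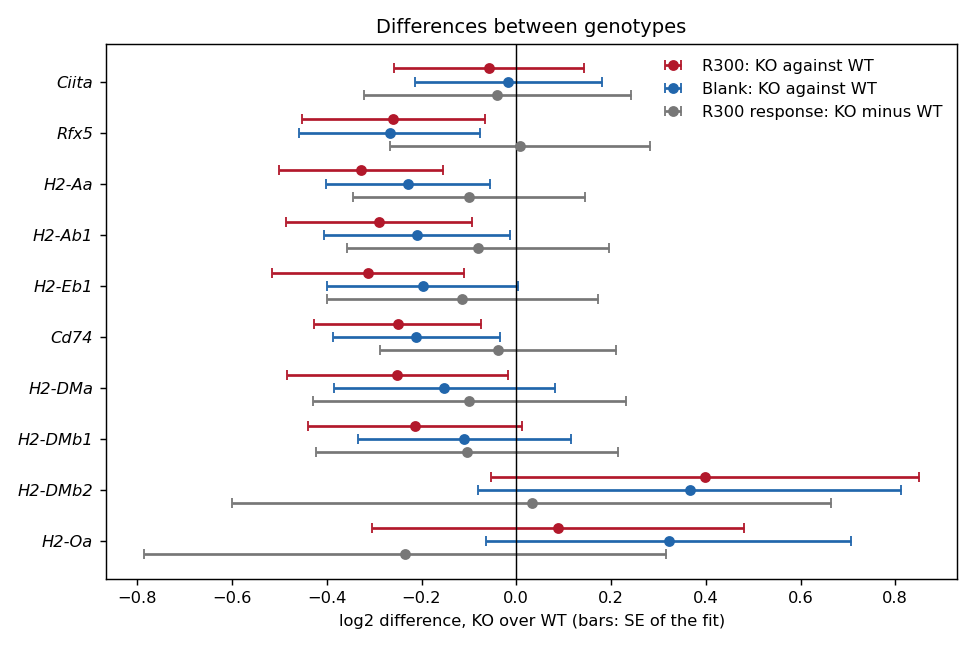
Log2 difference of KO over WT (x axis) for the 10 genes in R300 cells (dark red), in blank cells (blue), and the R300 response of KO minus that of WT (grey), with bars for the SE of the fit. Ciita lies at -0.06, -0.02 and -0.04, and H2-Aa at -0.33 in R300 and -0.23 in blank, none of which passed the test.

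Genes of class I antigen presentation had lower values in KO, none past the test. Of the 7 genes of the class I pathway and its regulator Nlrc5, 7 were negative in KO against WT in R300 (median log2 -0.48) and 7 in blank (median log2 -0.38), with 0 called. Over all genes 51.4% were negative in R300 and 49.3% in blank. B2m, the light chain of class I, was at 1223, 1190 and 1253 CPM in KO R300, against 1851, 1661 and 1775 CPM in WT R300, a ratio of 0.693 (edgeR adjusted p = 1.00). Its groups were apart, and 3.87% of all genes were likewise lower in KO R300 with no overlap. In blank cells B2m was at 0.768 of WT with the groups apart too, and the share over all genes was not computed there. None of these passed, and the list was chosen with these data in view.

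The 10 genes lie on 4 chromosomes of GRCm38 (GENCODE annotation), the assembly that mm10 names. Ciita is at chr16:10480059-10528418 on the plus strand, with 3.45% of its exonic bases shared with Dexi on the other strand. Rfx5 is at chr3:94954075-94961561 and Cd74 at chr18:60803848-60812652, both on the plus strand. The class II region of chromosome 17 holds H2-Oa at 34092340 to 34095234, H2-DMa at 34119541 to 34139101, H2-DMb2 at 34143307 to 34151555, H2-DMb1 at 34153072 to 34160230, H2-Ab1 at 34257689 to 34269419 and H2-Eb1 at 34305867 to 34316674, on the plus strand. H2-Aa lies among them at 34282744 to 34287823 on the minus strand.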

How the data were processed

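Poly(A) RNA was captured with oligo(dT) beads, per the labels' protocols, and the NEBNext Ultra kit keeps no strand information. The authors deposited raw counts per gene. Tools named in the submitters' processing notes are featureCounts 2.0.3, HISAT2 2, fastp 0.23.4, FastQC 0.12.1 and DESeq2 1.42.0, with the build mm10; how reads in 2 genes were treated is not given in the sources used here. The per-sample files held the same counts as the table (0 values differed). Rows without a symbol, 102 of 35050 (0.0232% to 0.0328% of counts), were left out, and 18 symbols with more than 1 row (38 rows, none of the 10 genes) were kept as separate rows.

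Counts were tested in R 4.3.3 with edgeR 4.0.16 (limma 3.58.1): TMM normalisation, filterByExpr over the 4 groups, robust quasi-likelihood fit, 1 mean per group over all 12 libraries, Benjamini-Hochberg adjustment over 16546 genes, adjusted p under 0.05 called. The biological coefficient of variation common to all genes was 0.267. CPM is TMM-normalised, and levels per kb divide by the union of annotated exons. Alternatives were a Wald test in DESeq2 1.42.0, size factors by relative log expression, library totals, no filter, a block for the replicate number, fitting just the groups compared, Xist presence (4 libraries without it) as a batch, only the 8 libraries with Xist, 1 library of each near-alike pair, and each library left out.

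The 10 genes and all gene lists were chosen with earlier results of these data known. Named are the 10 genes, of each list the called genes and those with the lowest p of a comparison (not each is given, and the result of 1 is not reported here), and the 5 most alike genes by Pearson r among genes with a mean of at least 1 CPM. Same-numbered blank libraries of KO and WT deviated together (r = 0.514, 0.535 and 0.558 over genes), so the numbers pair them by the data, not by the labels. The other groups were not treated as paired, since their same-numbered libraries gave r from -0.599 to 0.608. Among these, KO R300 3 deviated with KO blank 3 (r = 0.608) and with WT blank 3 (r = 0.560), each of them a library without Xist.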

Additional observations from a re-analysis of the deposited data

How the results depend on the processing

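The number of the 10 genes called between KO and WT, in R300, in blank and in the interaction, was 0 under every alternative run, the replicate block included (0 in each; 0 also for blank groups alone with the block, an alternative chosen after seeing the data). In R300 against blank, 1 of 10 was called in each genotype. In KO this was 2 with DESeq2 (Ciita and Rfx5), 0 with 1 library of each near-alike pair, and 0 to 1 with 1 library left out. In WT it was 2 with DESeq2, 0 with the near-alike pairs reduced, 0 with only the groups compared, and 0 to 1 with 1 library left out. With the replicate block it was 1 in each. Among all genes the R300 calls in KO, 138 as reported, were 442 with DESeq2, 43 with only the groups compared, 450 with the batch term, 290 in libraries with Xist, 34 with the pairs reduced and 45 to 171 with 1 library left out. In WT, 103 as reported, they were 363, 41, 347, 242, 28 and 32 to 135. The share called higher was 83.3% in KO and 88.3% in WT, and 70.4% and 73.0% with DESeq2. Between genotypes, DESeq2 called 14 genes in R300 and 4 in blank, no filter called 1 in each, and the batch term called 1 in blank. The interaction gives no value with only the groups compared. The cause of these shifts was not tested.

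The following log2 values changed sign. In R300, KO over WT for Ciita was 0.00276 in libraries with Xist. In blank cells it was 0.00109 with the replicate block and 0.0119 with the block in those groups alone. In WT, R300 over blank for H2-Eb1 was -0.00614 with DESeq2, -0.00613 with relative log expression, -0.0395 with library totals, -0.00565 with only the groups compared and -0.0768 in libraries with Xist, and for H2-Aa 0.00147 with the block. The interaction was -0.00653 (totals), -0.0137 (no filter) and -0.0457 (libraries with Xist) for Rfx5, -0.0705 (block) and -0.0198 (batch term) for H2-DMb2, 0.233 for Ciita and 0.00663 for Cd74 (libraries with Xist), and 0.0130 for H2-Ab1 (pairs reduced).

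With 1 library left out, log2 ranges that crossed 0 were as follows. R300 KO against WT gave -0.161 to 0.105 for Ciita and -0.0718 to 0.334 for H2-Oa. Blank KO against WT gave -0.219 to 0.104 for Ciita, -0.252 to 0.0328 for H2-DMa, -0.234 to 0.0907 for H2-DMb1, -0.0303 to 1.24 for H2-DMb2 and -0.0734 to 0.721 for H2-Oa. WT R300 against blank gave -0.0951 to 0.146 for H2-Aa, -0.209 to 0.123 for H2-Ab1, -0.112 to 0.196 for H2-Eb1, -0.261 to 0.0746 for Cd74, -0.822 to 0.360 for H2-DMb2 and -0.547 to 0.0985 for H2-Oa. The interaction gave -0.160 to 0.162 for Ciita, -0.165 to 0.190 for Rfx5, -0.257 to 0.00100 for H2-Aa, -0.289 to 0.0534 for H2-Ab1, -0.249 to 0.0952 for Cd74, -0.377 to 0.0417 for H2-DMa, -0.345 to 0.0215 for H2-DMb1, -0.842 to 0.429 for H2-DMb2 and -0.632 to 0.162 for H2-Oa. Ciita and Rfx5 kept negative R300 over blank values under all alternatives run, from -1.40 to -1.21 log2 in KO and -1.60 to -1.12 in WT for Ciita, and from -0.92 to -0.59 and -0.88 to -0.55 for Rfx5. The scarce genes, H2-Oa at about 2 CPM above all, have the least depth, and n = 3 libraries limits every interval.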
